A study of Homo sapiens with 9 samples.

Results

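The cytosolic ribosomal protein genes are described here through the open chromatin at their ends. Members were the protein-coding genes on chromosomes 1 to 22 whose symbols are RPL or RPS followed by a number, with an optional letter or an L or L1 ending, together with RPLP0, RPLP1, RPLP2 and RPSA. Pseudogenes, the RPS6K kinases and readthrough genes were left out. The rule used names and positions only, and it gave 80 genes among 19122 protein-coding genes on these chromosomes. They comprise 40 genes of the large subunit, 30 of the small subunit, 3 of the ribosomal stalk and 7 paralogs whose names end in L or L1. They lie on 20 chromosomes, with 12 on chromosome 19, 9 on chromosome 3 and 6 on chromosome 17.

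These proteins coat and shape the ribosomal RNA of the cytosolic ribosome, and their genes are among the most actively transcribed housekeeping genes of a growing cell. Their transcripts typically begin with a C followed by an unbroken run of pyrimidines, the terminal oligopyrimidine (TOP) motif, through which mTOR signalling controls their translation. Many of the genes are short, start in CpG-rich promoters and carry small nucleolar RNA (snoRNA) genes in their introns, and 27 of the 80 held at least 1 snoRNA gene in the annotation used. The IGF2BP proteins are RNA-binding proteins that act on mRNA stability and translation.

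Open chromatin was mapped with ATAC-seq, which uses Tn5 transposase to cut and tag accessible DNA, in HEK293T cells, an established line from human embryonic kidney. The control group had the genotype WT, made in parallel with a guide that targets no mammalian gene, and comprised 2 libraries, from batches 2 and 3. Cells with the IGF2BP1 gene knockout gave 3 libraries, 1 in each of batches 1, 2 and 3. Cells with the IGF2BP2 or the IGF2BP3 gene knockout gave 2 libraries per genotype, in batches 2 and 3. All 4 groups were untreated HEK293T cells, and all knockouts were obtained by transient transfection with plasmids that carry 3 guide RNAs and GFP, followed by sorting of single cells. Each knockout was 1 clone, and effects of the clone and of the genotype cannot be told apart. The deposited data are 4 peak lists, 1 for each group, which give the chromosome, start and end of every peak and no height. A list is 1 sample without a replicate, so the spread between replicates is not known for any difference below, no test was made, and read depth is unknown. The 3 knockout lists are all compared with the same control list.

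The promoters of 10 members named in the results below are shown. RPL7A, RPS12 and RPL12 had the widest peaks among the members whose promoter can be shown. RPL14, RPS27 and RPL13A had the narrowest among members with a peak in all 4 lists. RPL35A, RPL36, RPS10 and RPS9 had a peak at a gene end that differed between lists. At RPS10 and RPS9 that peak lay beyond the far end of the gene and not at the promoter shown. Sequences are from RefSeq on GRCh38.p14, read 5′ to 3′ on the strand of the gene, from 100 bases before the annotated transcription start to the first 30 transcribed bases. Capitals mark the run of C and T at the start. The positions are chr9:133348118-133348247 (plus strand) for RPL7A, chr6:132814469-132814598 (plus) for RPS12 and chr9:127451377-127451506 (minus) for RPL12. They are chr3:40457239-40457368 (plus) for RPL14, chr1:153990662-153990791 (plus) for RPS27 and chr19:49487508-49487637 (plus) for RPL13A. They are chr3:197950090-197950219 (plus) for RPL35A, chr19:5690195-5690324 (plus) for RPL36, chr6:34426040-34426169 (minus) for RPS10 and chr19:54200758-54200887 (plus) for RPS9.
RPL7A: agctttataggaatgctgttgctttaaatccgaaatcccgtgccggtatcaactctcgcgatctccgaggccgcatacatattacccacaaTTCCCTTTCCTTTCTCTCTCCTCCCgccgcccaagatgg
RPS12: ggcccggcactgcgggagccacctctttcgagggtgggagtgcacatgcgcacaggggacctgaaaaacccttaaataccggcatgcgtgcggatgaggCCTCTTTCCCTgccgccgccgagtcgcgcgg
RPL12: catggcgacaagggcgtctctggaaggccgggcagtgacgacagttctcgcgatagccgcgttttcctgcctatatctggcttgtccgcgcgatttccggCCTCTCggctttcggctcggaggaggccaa
RPL14: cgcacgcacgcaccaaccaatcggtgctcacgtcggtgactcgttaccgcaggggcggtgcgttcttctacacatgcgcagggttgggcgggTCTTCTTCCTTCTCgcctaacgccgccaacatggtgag
RPS27: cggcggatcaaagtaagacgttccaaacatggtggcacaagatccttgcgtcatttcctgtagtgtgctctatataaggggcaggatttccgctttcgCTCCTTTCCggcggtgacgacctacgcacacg
RPL13A: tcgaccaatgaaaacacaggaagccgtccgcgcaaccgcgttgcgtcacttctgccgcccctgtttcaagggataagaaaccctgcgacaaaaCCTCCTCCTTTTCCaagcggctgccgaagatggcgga
RPL35A: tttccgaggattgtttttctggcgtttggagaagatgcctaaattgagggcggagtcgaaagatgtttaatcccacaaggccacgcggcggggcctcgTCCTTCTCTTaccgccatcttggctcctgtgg
RPL36: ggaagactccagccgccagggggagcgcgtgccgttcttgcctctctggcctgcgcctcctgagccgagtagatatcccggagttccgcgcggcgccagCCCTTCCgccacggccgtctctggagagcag
RPS10: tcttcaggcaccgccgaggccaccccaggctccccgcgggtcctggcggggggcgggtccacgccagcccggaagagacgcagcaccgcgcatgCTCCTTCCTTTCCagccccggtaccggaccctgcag
RPS9: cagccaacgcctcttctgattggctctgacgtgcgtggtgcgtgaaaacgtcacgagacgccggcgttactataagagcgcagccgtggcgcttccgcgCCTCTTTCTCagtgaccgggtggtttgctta
Every promoter shown carries such a run, 25 bases long in RPL7A, 14 in RPL14 and RPL13A, 13 in RPS10, 11 in RPS12, 10 in RPL35A and RPS9, 9 in RPS27, 7 in RPL36 and 6 in RPL12.

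Of the 80 members, 63 matched an entry of the RefSeq promoter table, which holds the 250 bases before and the first 50 bases from each start. Members without a match included RPL5, RPL39L, RPL37, RPS20, RPL7, RPL30, RPL8, RPL3L, RPS2, RPS15A, RPL23A and RPL23. The run of pyrimidines that touches the 5 bases on either side of the start had a median of 11 bases over the 63 members, against 4 bases over 15100 protein-coding genes with an entry. It reached at least 8 bases in 46 members (73.02%) and in 11.3% of all genes. It was 2 bases long in RPL27, RPS15 and RPS29 and in the paralogs RPL10L, RPL26L1, RPL7L1 and RPS27L. Median GC content of the 300 bases was 59.33% in members and 63% in all genes, and the median number of CpG dinucleotides was 25 and 22.

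Short motifs were then searched on both strands of the same 300 bases, each on its own, so that matches of different motifs may share bases. The letters CCGGAAG, a core recognised by ETS factors, were in 22 of 63 members (34.92%) and in 14.35% of all promoters. AAGATGGC, a YY1 motif, was in 7 members (11.11%) and in 3.907% of all promoters. The palindrome CTCGCGAG, which reads the same on both strands, was in 6 members (9.524%) and in 1.543% of all promoters. CTTTCC, whose letters can lie within the pyrimidine run, was in 26 members (41.27%) and in 26.54% of all promoters. The shares lay closer together for TATAA, in 13 members (20.63%) against 16.83% of all promoters, and for the GC box GGGCGG, in 33 members (52.38%) against 58.87%. A match describes the letters and does not show that a factor was bound. Member start peaks with and without the ETS letters had median widths of 957.5 and 1070 bp in the control, 1014 and 1055 bp with IGF2BP1 knocked out, 995 and 938 bp with IGF2BP2 knocked out, and 1067 and 1024 bp with IGF2BP3 knocked out, so the order was not the same in all lists.

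The 4 lists held between 39194 peaks (control) and 60262 peaks (IGF2BP2 knockout), with 50917 for IGF2BP1 and 44041 for IGF2BP3. Their median peak widths were 771 bp for the control list and 834, 651 and 713 bp for the knockout lists of IGF2BP1, IGF2BP2 and IGF2BP3, so widths at ribosomal protein genes are given beside those at all genes. As a check of the labelled tissue, the embryonic kidney gene LHX1 had a gene-end peak in every list, EYA1 had one in the IGF2BP3 knockout alone and PAX2 in none. Of 4 genes of liver, T cells and blood, CD3E had one in the IGF2BP1 knockout list, and ALB, PTPRC and HBB had none.

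A gene-end peak, meaning a peak within 1 kb of either end of the gene, was present at nearly all members in every list. It was found at 77 of 80 members in the control list, where 66.9% of all protein-coding genes had one. The IGF2BP1 knockout list had one at 78 members (69.1% of all genes), the IGF2BP2 knockout list at 78 (68.7%) and the IGF2BP3 knockout list at 75 (67.5%). All 4 lists had one at 75 members, against 64.2% of all genes, and 2 members had none in any list, against 28.4% of all genes. By role, these 75 were 38 of the 40 large subunit genes, 29 of the 30 small subunit genes, the 3 stalk genes and 5 of the 7 paralogs. Among the 19 members mutated in Diamond-Blackfan anaemia or related disorders, 18 had a peak in all 4 lists, as did 26 of the 27 members with a snoRNA gene inside. No peak was shared by a pair of members.

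The 5 members with a missing peak were RPL35A, RPS2, RPL36, RPL10L and RPL26L1. RPL35A, a large subunit protein whose gene is mutated in Diamond-Blackfan anaemia, had a peak of 792 bp in the control list, and of 1000 and 950 bp with IGF2BP1 and IGF2BP2 knocked out. In the IGF2BP3 knockout list the nearest peak lay 3.314 kb from the gene. RPS2, which lines the mRNA entry channel of the small subunit, had peaks at both ends in 3 lists and none in the IGF2BP3 knockout list. At the lower coordinate they spanned 1283, 1040 and 908 bp, and at the higher coordinate 535, 725 and 645 bp, in the control, IGF2BP1 knockout and IGF2BP2 knockout. The nearest peak of the IGF2BP3 knockout lay 2.007 kb away, and a peak at that place was present in the other 3 lists as well. RPL36, a large subunit gene, had narrow peaks of 440 bp in the IGF2BP1 knockout and 372 bp in the IGF2BP2 knockout, and none in the control or the IGF2BP3 knockout, where the nearest peaks lay 2.758 and 2.661 kb away. The IGF2BP3 knockout list was the one that lacked all 3 of these peaks, and the IGF2BP1 and IGF2BP2 knockout lists held all of them. The lists that held them are also the longest, at 50917 and 60262 peaks. With each list cut to its widest 39194 peaks, 77 (control), 74 (IGF2BP1), 75 (IGF2BP2) and 75 (IGF2BP3) members had a gene-end peak. The IGF2BP3 knockout was then not the list with the fewest.

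RPL10L and RPL26L1, the members without a gene-end peak in any list, differed from each other. At RPL10L, an intronless retrogene expressed in testis, the nearest peak lay between 19.79 and 19.9 kb from the gene. RPL26L1, by contrast, had a wide peak inside the gene in all 4 lists, of 1434 bp (control), 1551 bp (IGF2BP1 knockout), 1623 bp (IGF2BP2 knockout) and 1411 bp (IGF2BP3 knockout). This peak covered the transcription start of the promoter table, which lies inside the gene as annotated. Of the 3 members without a control peak, 1 had one in the IGF2BP1 knockout list (9.14% of all genes without a control peak) and 1 in the IGF2BP2 knockout list (9.73%), RPL36 both times, and 0 in the IGF2BP3 knockout list (6.82%). Of the 77 with a control peak, 0 lacked one in the IGF2BP1 knockout (1.1% of all genes with a control peak), 0 with IGF2BP2 knocked out (2.04%) and 2 with IGF2BP3 knocked out (2.48%). The shares of losses are near those of all genes, and 3 members are too few to read a share of gains from.

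Most peaks at ribosomal protein promoters lay more on the upstream than on the downstream side of the start. A start peak, overlapping the 300 bases of the promoter entry, was present at 59 of 63 members in the control (93.65%), 61 in the IGF2BP1 knockout (96.83%), 61 in the IGF2BP2 knockout (96.83%) and 58 in the IGF2BP3 knockout (92.06%). The shares over all genes with an entry were 64.01, 65.84, 64.71 and 64.42%. In the control list, member start peaks reached a median of 623 bp upstream and 356 bp downstream of the start, whereas those of all genes reached 531 and 562 bp. With IGF2BP1 knocked out the medians of members were 545 and 401 bp, with IGF2BP2 knocked out 548 and 372 bp, and with IGF2BP3 knocked out 573.5 and 398.5 bp. For all genes they were 561 and 641 bp, 514 and 553 bp, and 517 and 578 bp. The short side of the member peaks was thus the transcribed side in every list. At 500 bp downstream of the start, 13.56% of the member start peaks of the control still covered the position, against 58.63% over all genes, and the knockout shares were 29.51, 24.59 and 32.76% against 68.11, 57.05 and 60.65%.

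**Figure D1:**
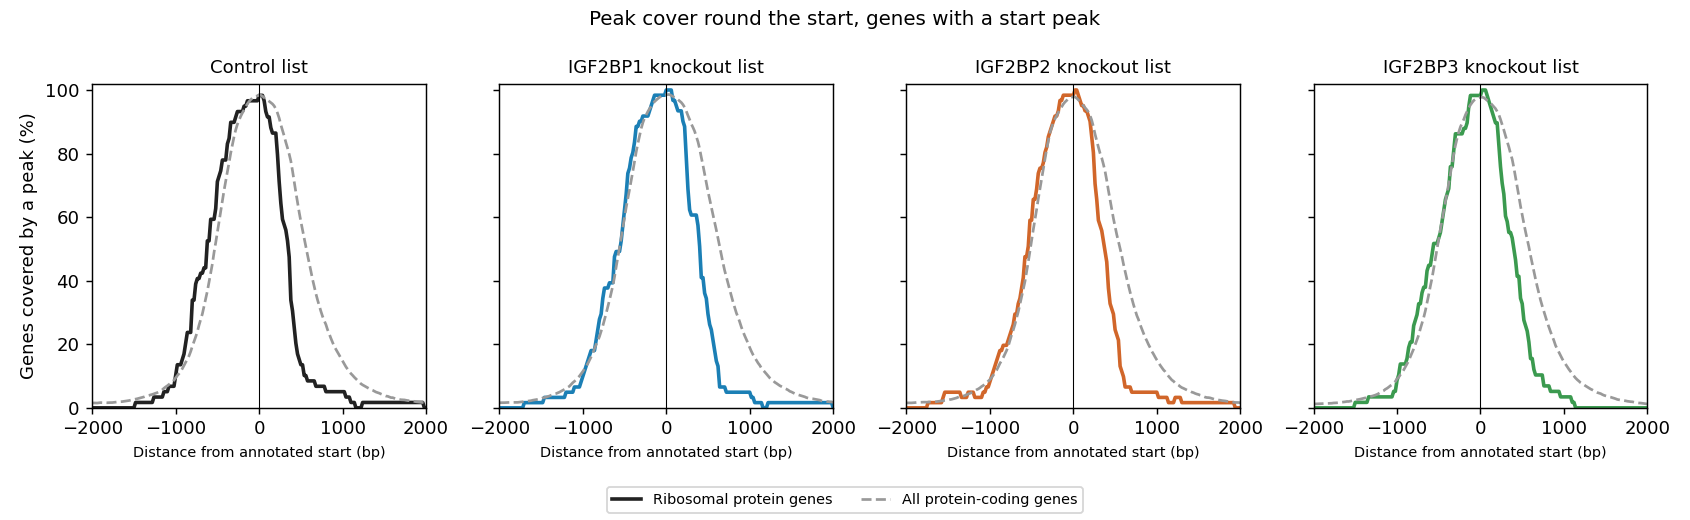
Share of genes with a start peak (vertical axis, %) whose peak covers each position from 2000 bp upstream to 2000 bp downstream of the annotated start (horizontal axis, bp), 1 panel per list. Solid lines are the ribosomal protein genes and dashed grey lines all protein-coding genes; at 500 bp downstream the solid line lies below the dashed line in each panel, at 13.56% against 58.63% in the control.

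Counted gene by gene, 50 of 59 member start peaks in the control reached farther upstream than downstream (84.75%), against 46.64% of the start peaks of all genes. The count was 45 of 61 in the IGF2BP1 knockout (73.77%, all genes 43.07%), 40 of 61 in the IGF2BP2 knockout (65.57%, all genes 46.32%) and 36 of 58 in the IGF2BP3 knockout (62.07%, all genes 43.97%). The share of members was lower in each knockout list than in the control list, while that of all genes differed between lists by less than 4 percentage points. Members without another protein-coding start within 1 kb gave 85.11, 72.92, 62.5 and 60%, against 42.13, 38.12, 42.07 and 39.03% of such genes overall. Genes shorter than 10 kb gave 52.45, 48.98, 52.79 and 50.4%. Genes outside the set with a pyrimidine run of at least 8 bases at the start gave 42.26, 38.95, 43.13 and 41.47%.

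Other genes of the translation machinery were set beside these values. The start peak reached farther upstream at 59.42, 52.17, 53.62 and 50.72% of the mitochondrial ribosomal protein genes, which serve the separate ribosome of the mitochondrion (69 with a promoter entry). For 31 ribosome assembly factors, which help build the cytosolic subunits, the shares were 67.74, 60, 67.74 and 61.29% (of 31, 30, 31 and 31 start peaks). Of the translation factors and other genes with TOP mRNAs, 20 had a promoter entry. Their shares were 44.44, 55.56, 58.82 and 50%, of 18, 18, 17 and 18 start peaks. The member share was the highest of these groups in 3 lists, by less than 1 percentage point in the IGF2BP3 knockout list, and the assembly factors were above it in the IGF2BP2 knockout list. Like the member share, that of the mitochondrial ribosomal protein genes was lower in each knockout list than in the control list. This did not hold for the assembly factors or the translation factors.

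The longest upstream reach was seen at RPL7A, which hosts 4 snoRNA genes and has the longest pyrimidine run of the set. Its control peak extended 1498 bp upstream and 152 bp downstream of the start, and its knockout peaks extended 1700, 1554 and 1512 bp upstream. RPS12, whose protein sits on the small subunit, extended 1274 bp upstream and 484 bp downstream in the control. That peak also covered the start of the uncharacterised gene LOC107986644. RPL4, which lines the exit tunnel of the nascent chain, extended 1144 bp upstream and 263 bp downstream. The RPL4 peak also covered the start of ZWILCH in every list. RPL28 extended 936 bp upstream and 133 bp downstream. The 3 knockout lists kept this order of sides, with upstream reaches of 844, 993 and 846 bp at RPL4 and of 921, 936 and 872 bp at RPL28.

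**Figure D2:**
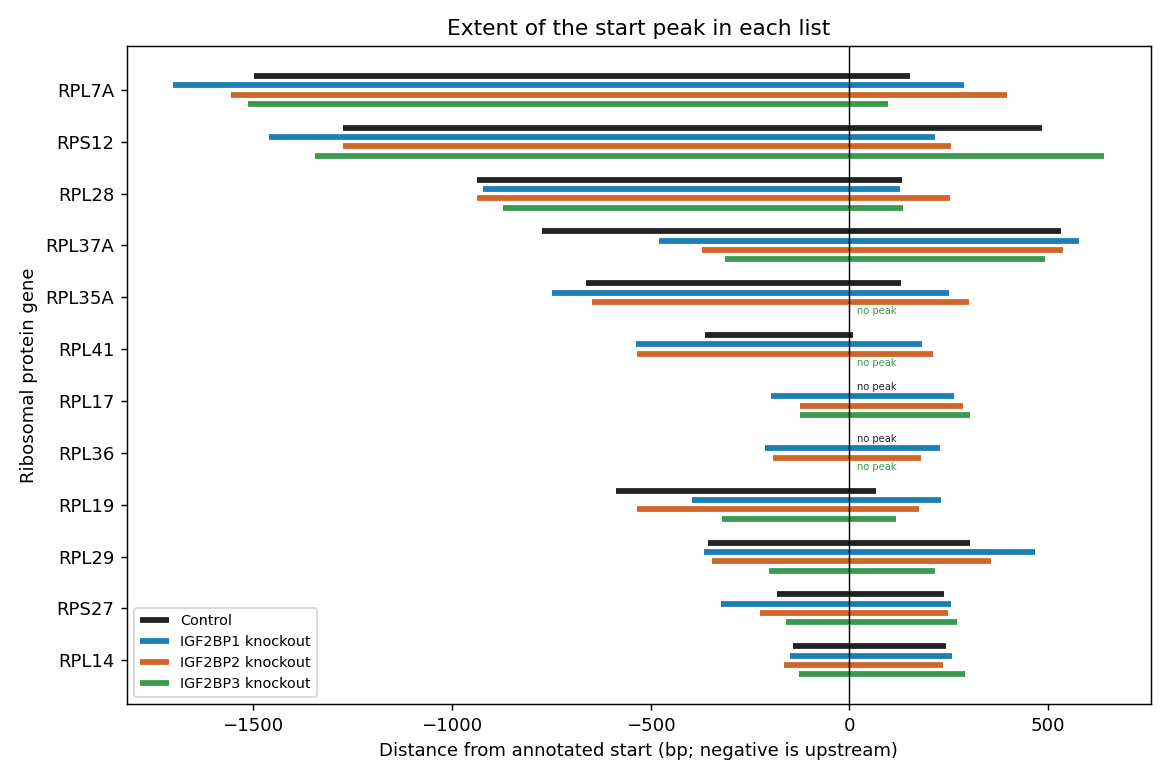
Reach of the start peak upstream (left of 0) and downstream (right of 0) of the annotated start, in bp, for 12 named members, with 1 coloured line per list and no line where the list has no start peak. RPL7A reaches 1498 bp upstream and 152 bp downstream in the control, and RPL14 spans only 385 bp there.

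A few start peaks were narrow or missing in single lists. RPL41, which encodes the shortest ribosomal protein, had a start peak of 372 bp in the control that ended 8 bp past the start, peaks of 719 and 743 bp in the IGF2BP1 and IGF2BP2 knockouts, and none in the IGF2BP3 knockout. It was still counted as having a gene-end peak there, because its far-end peak over the start of ZC3H10 was present. RPL17, another exit tunnel protein, had no start peak in the control list, while its knockout peaks spanned 461 bp (IGF2BP1), 411 bp (IGF2BP2) and 429 bp (IGF2BP3). RPL6 had no peak over the start given in the promoter table in any list, but it had peaks that overlap the gene on either side of that start, of 609 and 1196 bp in the control. That start lies inside the gene as annotated, and the wider peak spanned the upstream end of the gene in every list.

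Between each knockout and the control, start peaks of the same genes differed little in total width. The median log2 ratio of widths was 0.11 in the IGF2BP1 knockout (59 members, all genes 0.10), 0.00 in the IGF2BP2 knockout (59 members, all genes -0.00) and 0.00 in the IGF2BP3 knockout (57 members, all genes -0.00). The median upstream reach of members differed from the control by 10, -24 and -20 bp, and that of all genes by 19, 0 and -6 bp. The median downstream reach of members differed by 37, 28 and 42 bp, and that of all genes by 43, 1 and 4 bp. By these medians, member peaks of the IGF2BP2 and IGF2BP3 knockout lists lay slightly farther into the gene than those of the control list. The quartiles over members fell on both sides of 0. Upstream they were -131 and 17.5 bp for IGF2BP2 and -141 and 16 bp for IGF2BP3. Downstream they were -4.5 and 123 bp for IGF2BP2 and -21 and 123 bp for IGF2BP3.

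The widest gene-end peak of each member was taken as its width. The median over members was 1045 bp in the control list, and the knockout lists had 1068 bp (IGF2BP1), 998 bp (IGF2BP2) and 1008 bp (IGF2BP3). Over all genes with a gene-end peak it was 1141, 1247, 1104 and 1130 bp. Member peaks were thus narrower than those of the typical gene, although within each list their median width stood at percentiles 72.93, 70.46, 79.77 and 74.28 of all peaks. Small subunit genes had medians of 998.5, 1030, 923 and 882 bp and large subunit genes of 1070, 1072, 1023 and 1024 bp. Mitochondrial ribosomal protein genes were alike in width, at 1016, 1120, 1028 and 1018 bp.

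The order of members by width was broadly alike in the 4 lists. The Spearman correlation of the widths of 75 members between pairs of lists ran from 0.7666 to 0.8343, given as a description of lists that share the cell line and the genome. The highest of the 4 widths exceeded the lowest by a median of 1.247-fold in members and 1.235-fold over 12273 genes. It reached 2-fold in 3 members (4%, all genes 6.315%). RPL5, which binds 5S rRNA together with RPL11 and restrains MDM2, was the most even, at 1045 bp (control), 1023 bp (IGF2BP1 knockout), 1026 bp (IGF2BP2 knockout) and 1039 bp (IGF2BP3 knockout). RPL11 spanned 862, 798, 914 and 771 bp in the same order, which holds for every set of 4 widths below.

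The widest peaks belonged to RPL7, RPL7A, RPL23A, RPS12 and RPL12. RPL7 had 2415, 2372, 2479 and 2358 bp, the widest member peak of every list. RPL7A had 1651, 1990, 1951 and 1609 bp, and RPS12 had 1759, 1675, 1531 and 1986 bp. RPL12, with 1545, 1797, 1589 and 1451 bp, shares its peak with the start of LRSAM1, which lies head to head with it. For RPL23A, a docking site of the signal recognition particle, the widths of 2264, 2310 and 2139 bp in the first 3 lists belong to a peak over the start of TLCD1 beyond the end of the gene. Its other peak, at the lower coordinate, spanned 876, 750, 875 and 856 bp.

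Among the 75 members with a peak in all 4 lists, the narrowest peaks by the geometric mean of the 4 widths belonged to RPL14, RPS27, RPL13A, RPL19 and RPS16. RPL36, with a peak in 2 lists, was narrower than the last 3 in both, and its 372 bp was the narrowest member peak of the IGF2BP2 knockout list. RPL14 had 385, 407, 402 and 418 bp, and RPS27, a zinc finger protein of the small subunit, had 423, 579, 473 and 430 bp. RPL13A, which also acts in an interferon-gamma-dependent brake on translation, had 592, 611, 614 and 535 bp. RPL19 had 656, 626, 710 and 438 bp, and RPS16 had 547, 753, 546 and 668 bp. Start peaks of members with a pyrimidine run of at least 8 bases had median widths of 954, 1006, 905.5 and 976.5 bp (45, 46, 46 and 44 peaks). Those of the other members had 1084, 1144, 1129 and 1135 bp, over only 14, 15, 15 and 14 peaks. Members with the run thus had the narrower median in each list. The order was the other way outside the set, where genes with such a run had 1190, 1296, 1138 and 1152 bp. Start peaks of all genes had 1150, 1259, 1123 and 1139 bp, narrower in each list.

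**Figure D3:**
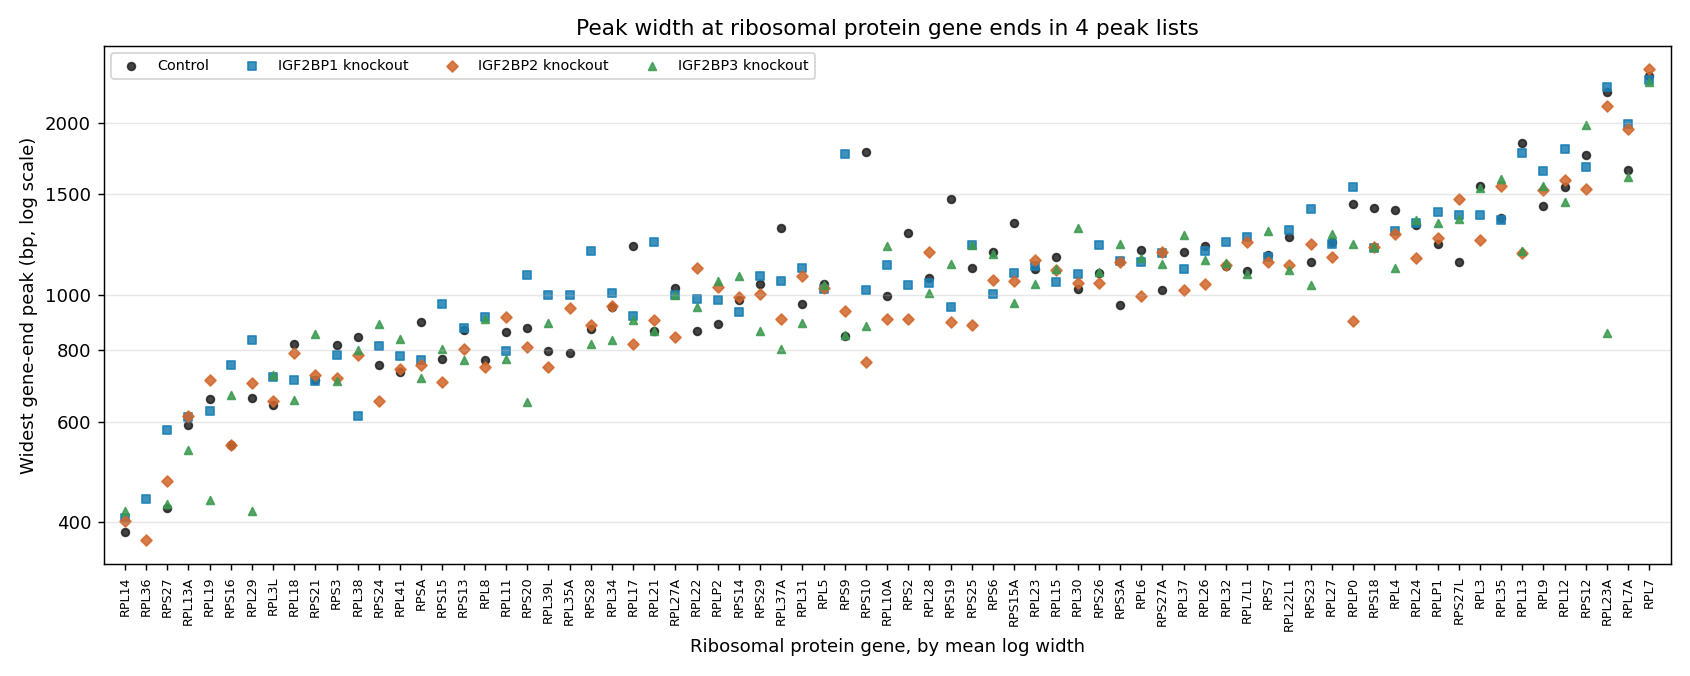
Width of the widest gene-end peak (vertical axis, bp, log scale) for 73 of the 78 members with a peak in at least 1 list, ordered by mean log width, with the 4 lists as separate points. RPL7 is the widest, between 2358 and 2479 bp, and RPL14 among the narrowest, between 385 and 418 bp.

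The stalk genes, whose proteins RPLP0, RPLP1 and RPLP2 bind the translational GTPases, had peaks in every list. RPLP1 spanned 1228, 1394, 1255 and 1336 bp, and RPLP2 spanned 890, 979, 1034 and 1057 bp. RPSA, also known as the laminin receptor precursor, was narrower in each knockout list than in the control list, at 898, 770, 754 and 716 bp. RPS27A, which is made as a fusion with ubiquitin, was wider in each knockout list, at 1019, 1185, 1190 and 1134 bp. This peak also covered the start of CLHC1 in every list, and in the control it fell just short of the RPS27A start. None of RPLP1, RPLP2, RPSA and RPS27A was past the 1.5-fold ratio described next in any knockout.

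Among the paralogs, 5 of 7 had a gene-end peak in all 4 lists. RPL22L1, the paralog of RPL22, spanned 1260, 1297, 1127 and 1105 bp, and RPS27L, a p53-responsive paralog of RPS27, spanned 1140, 1378, 1471 and 1358 bp. The RPS27L peak was wider than that of RPS27 in every list. RPL7L1 spanned 1100, 1263, 1238 and 1089 bp, the last from its start peak and the others from a far-end peak over the start of PEX39. The start peak of RPL7L1 spanned 933, 1063, 1047 and 1089 bp. RPL39L, known for its expression in testis, spanned 798, 1001, 748 and 892 bp. RPL3L, a muscle paralog of RPL3, spanned 642, 717, 651 and 725 bp, and its peak covers the start of the neighbouring gene MSRB1.

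Gene-end peaks of members were compared between each knockout and the control by the ratio of their widths. The width is that of the widest gene-end peak, which at some members lay at the far end of the gene and not at the promoter. The ratio is the log2 of knockout over control, centred on the median of all genes compared. That median was 0.10 in the IGF2BP1 knockout and -0.01 in each of the others. The centred ratio of members had a median of -0.06 in the IGF2BP1 knockout (77 members, quartiles -0.17 and 0.10), -0.03 in the IGF2BP2 knockout (77 members, quartiles -0.19 and 0.10) and -0.03 in the IGF2BP3 knockout (75 members, quartiles -0.19 and 0.13). The ratio was above 0 in 31 and below 0 in 46 members in the IGF2BP1 knockout, 37 and 40 with IGF2BP2 knocked out, and 32 and 43 with IGF2BP3 knocked out. Large subunit genes had medians of -0.11, 0.01 and -0.03 and small subunit genes of -0.07, -0.08 and -0.02. The set as a whole thus stayed close to all genes in each knockout.

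A centred ratio of at least 1.5-fold in either direction was reached by 3 of 77 members in the IGF2BP1 knockout (5.52% of all genes), 5 of 77 in the IGF2BP2 knockout (6.96%) and 5 of 75 in the IGF2BP3 knockout (6.5%). In the IGF2BP1 knockout, 1 member was wider (4.52% of all genes) and 2 were narrower (0.997% of all genes). In the IGF2BP2 knockout, 0 were wider (1.84%) and 5 narrower (5.12%), and in the IGF2BP3 knockout, 0 were wider (2.49%) and 5 narrower (4.01%). When the peak at the annotated start alone was used, 1 of 59 members was wider in the IGF2BP1 knockout and 1 of 59 in the IGF2BP2 knockout. In the IGF2BP3 knockout 3 of 57 were then narrower. The wider member was RPL41 both times, with a start peak of 372 bp in the control and of 719 and 743 bp in these knockouts. Shares of all genes were not computed for the start alone.

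**Figure D4:**
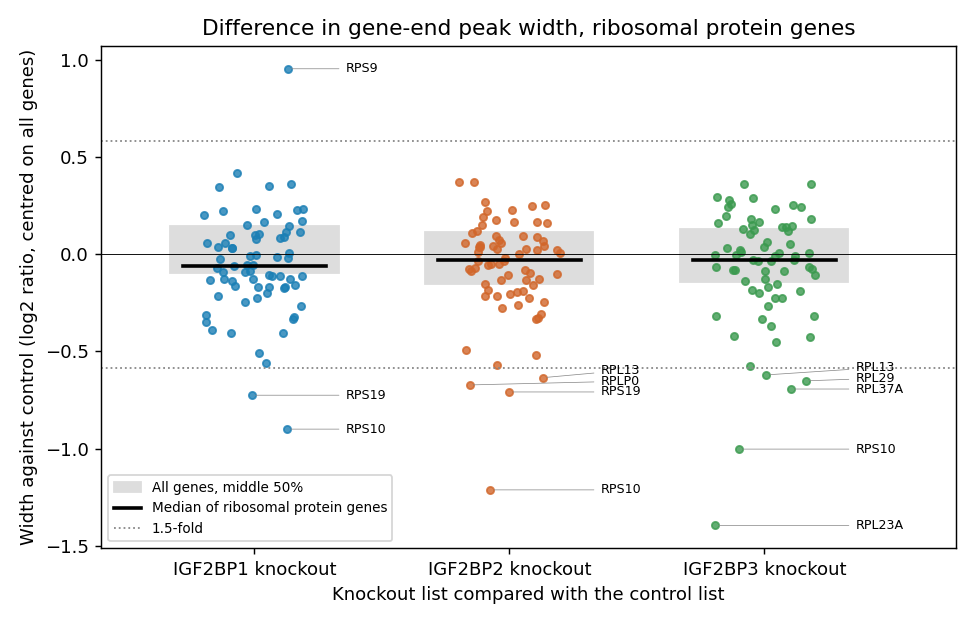
Centred log2 ratio of the widest gene-end peak, knockout list over control list (vertical axis), with a point for each plotted member in each knockout; the black bars are medians over all members compared (-0.06, -0.03 and -0.03), the grey boxes the middle 50% of all genes and the dotted lines a 1.5-fold ratio. Named points lie past that ratio, with RPS9 the single wider gene.

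RPS10, a small subunit gene mutated in Diamond-Blackfan anaemia, was past the ratio in all 3 knockouts, which share the control list. Its widths were 1777, 1021, 763 and 882 bp, and the centred ratios were -0.90, -1.21 and -1.0. The control value belongs to a peak on chromosome 6 from 34415395 to 34417171, 283 bp beyond the end of the gene, that the knockout lists lack. The peak over the RPS10 start, whose promoter is printed above, spanned 774, 1021, 763 and 882 bp and so was no narrower in the IGF2BP1 and IGF2BP3 knockouts than in the control. RPS19, the gene most often mutated in that anaemia, had widths of 1471, 954, 896 and 1134 bp and centred ratios of -0.73, -0.71 and -0.37. The control width is that of its far-end peak and the knockout widths are those of its start peak, so the ratios compare different peaks. Its start peak spanned 1327 bp in the control, and with the start alone RPS19 was not past the ratio in any knockout. The far-end peak of RPS19 spanned 1471 bp in the control and 575, 454 and 326 bp in the knockouts. The start peak of RPS19 reached 428 bp downstream in the control, 101 and 43 bp in the IGF2BP1 and IGF2BP2 knockouts and 421 bp in the IGF2BP3 knockout.

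For 3 of the called genes the ratio rests on whether a neighbouring peak fell inside the 1 kb window. RPS9, the single wider member, had 848, 1764, 938 and 849 bp, a centred ratio of 0.96 in the IGF2BP1 knockout. Its start peaks were alike, at 848, 912, 938 and 849 bp, and the value of 1764 bp is a peak 982 bp beyond the gene. That peak was also present in the control (1387 bp) and the IGF2BP2 knockout (1677 bp), 1329 and 1033 bp beyond the gene and so outside the window. RPL23A had 856 bp in the IGF2BP3 knockout, a centred ratio of -1.40, the lowest of any member, because the peak over TLCD1 there (1644 bp) lay 1410 bp beyond the gene. RPLP0 had 1441, 1544, 900 and 1226 bp, a centred ratio of -0.67 in the IGF2BP2 knockout. Its peak over the start of GCN1 lay 1196 bp beyond the gene in that list and 793 bp beyond it in the control.

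Other calls concern RPL37A, RPL29 and RPL13. RPL37A, a zinc-binding large subunit protein, had 1307, 1057, 907 and 804 bp, with centred ratios of -0.41, -0.52 and -0.69. Most of that difference was upstream of its start, where the peak reached 773, 479, 370 and 312 bp, against 533, 577, 536 and 491 bp downstream. RPL29, known for binding heparin, had 660, 833, 702 and 418 bp and a centred ratio of -0.65 in the IGF2BP3 knockout. RPL13 had 1847, 1769, 1184 and 1195 bp, all from a peak at its far end, with centred ratios of -0.63 and -0.62 in the IGF2BP2 and IGF2BP3 knockouts. Its start peak spanned 746, 788, 637 and 364 bp.

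Peaks at the far end of the gene were found at a larger share of ribosomal protein genes than of all genes. A peak within 1 kb of the far end that was not the start peak was present at 15 of 63 members in the control (23.81%), 13 in the IGF2BP1 knockout (20.63%), 12 in the IGF2BP2 knockout (19.05%) and 12 in the IGF2BP3 knockout (19.05%). The shares over all genes with an entry were 7.768, 9.265, 9.49 and 7.424%. The genes were RPL13, RPL15, RPL17, RPL26, RPL27A, RPL3, RPL4, RPL41, RPL7L1, RPLP0, RPS10, RPS14, RPS18, RPS19 and RPS6 in the control. Of these 15 control peaks, 6 covered the start of another protein-coding gene, namely C18orf32 at RPL17, KRABD2 at RPL26, SNAPC5 at RPL4, ZC3H10 at RPL41, PEX39 at RPL7L1 and GCN1 at RPLP0. The median length of a member was 5025 bp.

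Far-end peaks were mostly narrower in the knockout lists. At RPS18, a small subunit protein at the head, the widths were 1421, 1081, 686 and 791 bp. RPL4 had 1368, 1293, 1021 and 1015 bp, and RPL17 had 1219, 918, 819 and 905 bp. Each of these was widest in the control. RPS14, the small subunit gene lost in the 5q- syndrome, was even, at 978, 932, 990 and 901 bp, and RPL41 had 733, 781, 709 and 837 bp. Over the 12 members with such a peak in both lists, the median log2 ratio, not centred, was -0.08 in the IGF2BP1 knockout, -0.40 in the IGF2BP2 knockout and -0.43 in the IGF2BP3 knockout. For all genes it was 0.11 (1068 genes), -0.03 (1054 genes) and -0.07 (953 genes), and for genes shorter than 10 kb 0.12, -0.00 and -0.05. The knockout peak was the narrower one at 8, 9 and 11 of the 12 members, and at 26.31, 55.88 and 63.27% of all genes. RPS6, the substrate of S6 kinase, had a far-end peak of 724 bp in the control alone.

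**Figure D5:**
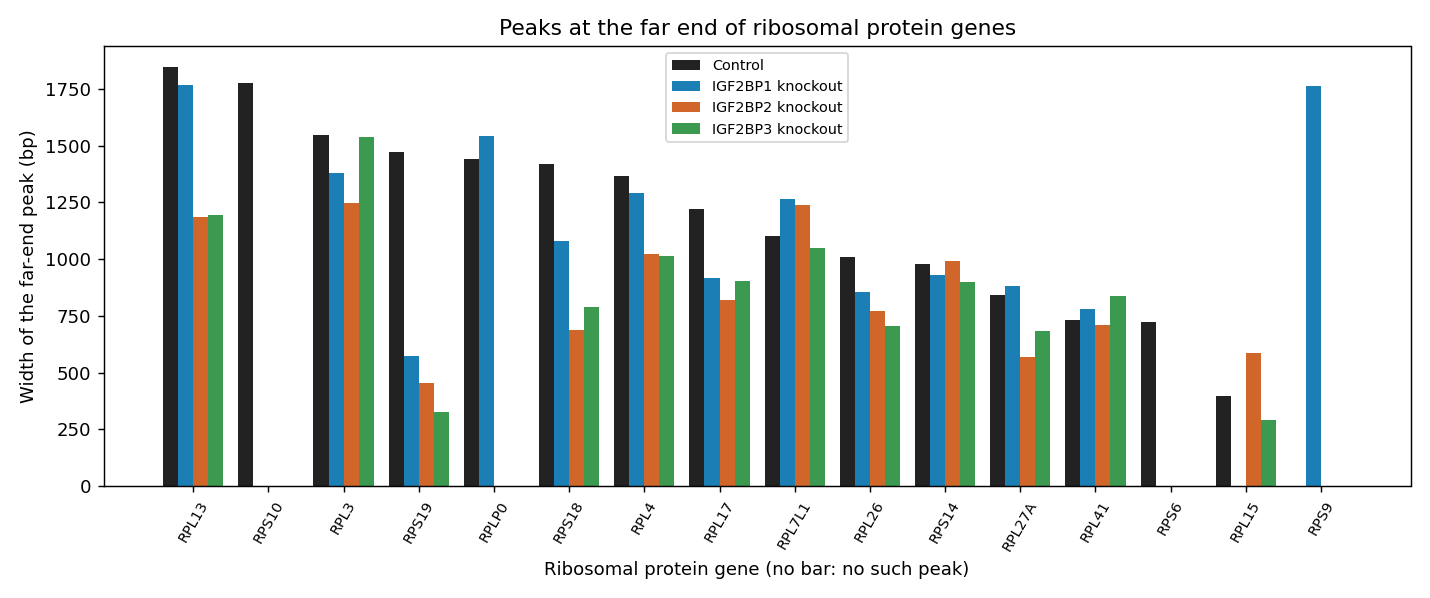
Width in bp of the peak at the far end of each member that has one, in the 4 lists. RPS19 runs from 1471 bp in the control to 326 bp in the IGF2BP3 knockout, and RPS14 stays between 901 and 990 bp.

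The number of gene-end peaks per member was counted next. There were 93 peaks at member gene ends in the control, 93 in the IGF2BP1 knockout, 92 in the IGF2BP2 knockout and 86 in the IGF2BP3 knockout. At least 2 peaks were found at 16, 15, 14 and 11 members, which is 20.78, 19.23, 17.95 and 14.67% of the members with a peak. Over all genes with a peak the shares were 9.981, 10.54, 12.78 and 9.962%. No member had more than 2.

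Members were also grouped by chromosome, since each knockout is 1 clone. Over the 6 chromosomes with at least 5 members (1, 3, 6, 11, 17 and 19), the median centred ratio ran from -0.17 to 0.09 in the IGF2BP1 knockout, from -0.19 to 0.17 in the IGF2BP2 knockout and from -0.08 to -0.00 in the IGF2BP3 knockout. The highest of these medians was on chromosome 1 in each knockout list, and the lowest on chromosome 6 for IGF2BP1 and IGF2BP2 and on chromosome 19 for IGF2BP3.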

How the data were processed

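The 9 ATAC-seq libraries are represented by 4 deposited peak lists, 1 per group, in which the authors give the chromosome, start and end of each peak, with no height or score. Per the submitters' processing notes, fastp 0.24.1, BWA 0.7.17, MACS2 3.0.0, bedtools and the build GRCh38 were used. Their settings, the threshold for peaks, any shift for the Tn5 offset and how libraries were pooled are not given in the sources used here, and depth is unknown, so no counting interval is given. Depth and the threshold can bear on every count and width, which was not tested.

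Gene positions and promoter sequences came from RefSeq (GRCh38.p14). The gene table has no strand, so a gene-end peak lay within 1 kb of either end of the gene; starts and strands came from the promoter table for 63 members. Exons and UTRs of peaks were not determined. Widths, reaches and ratios were computed with Python 3.11.15, pandas 2.3.3 and numpy 2.4.6, and the steps were tested on simulated data. A ratio of 1.5-fold after centring on all genes stands in place of a test.

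Named genes were members lacking a peak in a list, the 5 widest and 5 narrowest, those past the ratio (at most 12), the paralogs, the stalk genes, RPSA, RPS27A, RPL5 and RPL11. Members named for the reach of the start peak or for a far-end peak, such as RPL4, RPL28, RPL41, RPL17, RPL6, RPS18, RPS14 and RPS6, were chosen after their values were seen. The members and lists were chosen with earlier results of these data known. Alternatives covered the window, the gene end, the peaks and members used, the width measure, centring and the fold. Some genes are not reported here by name and are left out of the plots of widths and ratios, but count in all totals and medians. Columns of per-sample values not used numbered 0.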

Additional observations from a re-analysis of the deposited data

How the results depend on the processing

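A recomputed count was called the same if it lay within 1.5-fold of the main value, so a count of nearly all members moves only with a large drop. A median or share was called the same if it lay inside the 95% interval of the main value. That interval is over member genes and holds no spread between replicates. Of 134 values recomputed under the alternatives, 116 were the same and 18 moved by this rule. All 12 values for the upstream reach of start peaks, whose alternatives were chosen after seeing the data, were the same. Of these 12, the shares with close peaks merged were identical to the main values. Most that moved were counts of members past the 1.5-fold ratio, which were 3, 5 and 5 in the IGF2BP1, IGF2BP2 and IGF2BP3 knockouts. They were 1, 1 and 3 of 59, 59 and 57 members with the annotated start alone. Of 77, 77 and 75 members they were 16, 13 and 14 at the lower fold tried and 0, 1 and 2 at 2-fold. With widths summed over peaks the counts were 5 of 77 in the IGF2BP1 and 8 of 75 in the IGF2BP3 knockout, and no shares of all genes were computed under these alternatives. Without members whose ends neighbour another gene the counts past the ratio were 3 in the IGF2BP2 and 3 in the IGF2BP3 knockout. Of the 43 members then left, 42 had a peak in the control, 42 in the IGF2BP1, 42 in the IGF2BP2 and 41 in the IGF2BP3 knockout. These 4 counts are lower because fewer members were counted. Without centring, the median ratio in the IGF2BP1 knockout was 0.042 in place of -0.06, since the median of all genes there was 0.10. The cause of the other shifts was not tested. No paired analysis was possible because each group is 1 pooled list without values per library, and for the same reason no replicate could be left out and no batch compared. Widths depend on a depth that is unknown.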

Other observations

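Ribosomal protein genes outside the rule were looked at for the same measure. The X-linked genes all had a gene-end peak in every list, with widths in the control, IGF2BP1, IGF2BP2 and IGF2BP3 knockouts of 1343, 1541, 1017 and 1368 bp at RPL10, 872, 831, 1052 and 945 bp at RPL36A, 969, 1166, 915 and 945 bp at RPL39, and 844, 856, 816 and 712 bp at RPS4X. FAU, which encodes a ribosomal protein fused to a ubiquitin-like protein, had 743, 1136, 823 and 673 bp, and RPL36AL had 1071, 1371, 1014 and 1025 bp.

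Mitochondrial ribosomal protein genes had a gene-end peak in all 4 lists at 74 of 77 genes (96.1%), a share close to that of the cytosolic set. Ribosome assembly factors had one in all 4 lists at 32 of 34 genes, and translation factors and other genes with TOP mRNAs at 25 of 28. PES1, an assembly factor, had peaks of 672 and 739 bp in the IGF2BP1 and IGF2BP2 knockouts and none in the control or the IGF2BP3 knockout, as was the case at RPL36. NPM1, a nucleolar chaperone of ribosome assembly, had 1487, 1600, 1671 and 1524 bp, and NCL, the gene of nucleolin, had 1951, 1748, 2149 and 1388 bp. These lists were described by their counts and were not tested.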
